A study of Mus musculus with 7 samples.

Results

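The resistin-like family of the mouse consists of Retn, Retnla, Retnlb and Retnlg, small secreted proteins rich in cysteine. All 4 genes were taken by name, each was read by 1 probe set carrying that single gene symbol, and they are 4 of the 19938 genes measured. The arrays profile the gut of wild-type animals (WT) and of animals lacking Atg4b (KO), the protease that processes LC3 and GABARAP proteins for autophagosome formation. All animals had the strain label C57Bl6/129Sv and were 3 months old. The 7 arrays fell into 6 groups. Untreated control ileum gave 1 WT and 1 KO array, untreated control colon gave 1 WT and 1 KO array, and colon after dextran sulfate sodium (DSS) gave 1 WT and 2 KO arrays. DSS is a polysaccharide that injures the colonic epithelium and was given orally for 7 days, followed by 3 days of water. The series set out to describe how the intestine without Atg4b responds to this chemical colitis.

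Resistin, the product of Retn, is known in mice as a hormone of white adipocytes that opposes the action of insulin. RELM-beta, the product of Retnlb, is made by intestinal goblet cells, is released into the lumen, acts against bacteria and is induced by microbes and by the type 2 cytokines IL-4 and IL-13. RELM-alpha, the product of Retnla, marks macrophages activated by IL-4 or IL-13 and is also made in fat, whereas RELM-gamma, the product of Retnlg, is found in bone marrow and neutrophils.

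Several facts of the whole series bear on these genes. Atg4b was at a log2 intensity of 7.35 to 7.72 in the 3 WT arrays and of 5.39 to 5.45 in the 4 KO arrays. All 6 ileal genes of a defining list (Fabp6 and Sis among them) were higher in ileum, and all 7 colonic genes (Car1 and Aqp8 among them) were higher in colon. The labels give female sex for both WT control arrays and both KO DSS arrays, and male sex for the KO controls and the WT DSS array. Xist, a transcript of the inactive X found in females, was instead at 5.19 to 5.52 in all 4 control arrays and at 12.16 to 12.55 in all 3 DSS arrays, and the Y-linked Eif2s3y was the other way round. DSS and the sex shown by these markers therefore cannot be told apart, in any gene below. The labels do not say whether control ileum and colon came from the same mouse. The p-values therefore describe the spread between arrays that a fit leaves unexplained, which may be technical. Only KO DSS colon has 2 arrays. In the fit of condition and genotype, this spread therefore also holds any genotype difference that varies between conditions. In bulk tissue fewer cells of a type and less RNA per cell cannot be told apart either.

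Retnlb, Retnla and Retnlg lie next to each other on chromosome 16 in the RefSeq annotation of GRCm38.p6, with no other annotated gene between them, and Retn lies on chromosome 8. RefSeq promoters (250 bases before the transcript start to 50 after it) matched 3 of the 4 genes, Retn, Retnla and Retnlg. The windows of Retnla and Retnlg are shown because these neighbours share sequence but had different values in DSS colon. Capitals mark matches to the Stat6 motif (TTC and GAA with any 4 bases between them), a C/EBP motif (TTGCNNAA) and a TATA box (TATAAA). A Cdx motif (TTTATG) was searched too, and both strands were read.
Retnla, chr16:48842359-48842658, plus strand: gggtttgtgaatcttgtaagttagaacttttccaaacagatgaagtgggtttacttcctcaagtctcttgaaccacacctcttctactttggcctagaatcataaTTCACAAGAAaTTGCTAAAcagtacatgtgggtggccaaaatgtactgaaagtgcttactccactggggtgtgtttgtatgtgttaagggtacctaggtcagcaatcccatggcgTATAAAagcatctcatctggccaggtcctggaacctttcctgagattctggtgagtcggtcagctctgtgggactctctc
Retnlg, chr16:48872358-48872657, plus strand: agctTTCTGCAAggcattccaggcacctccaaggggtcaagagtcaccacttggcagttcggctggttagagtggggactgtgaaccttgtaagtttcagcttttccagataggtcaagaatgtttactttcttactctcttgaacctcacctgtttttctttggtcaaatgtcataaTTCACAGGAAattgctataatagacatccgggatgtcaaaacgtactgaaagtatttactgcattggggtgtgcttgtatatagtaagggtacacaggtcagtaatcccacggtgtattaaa
In a global alignment 178 of 225 aligned bases of these windows were identical (79.1%). Both held a Stat6 motif match, which began 145 bases before the start in Retnla (TTCACAAGAA) and 72 bases before it in Retnlg (TTCACAGGAA). In both windows the match follows the letters tcataa and precedes attgct. It is thus a shared stretch that lies at different distances from the annotated starts. Retnla held a C/EBP match beginning at 134 bases and a TATA box at 30 bases before the start, and Retnlg a C/EBP match on the other strand beginning at 246 bases. The Retnlg window ends at the letters that correspond to the Retnla TATA box, where it reads tattaaa. The Retn window held none of the 4 motifs. Of 32851 windows of this length in the table, 6.95% held the Stat6 motif, 10.8% the C/EBP motif, 13.6% the TATA box and 11.9% the Cdx motif. A match describes letters, not binding.

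Retnlb, the epithelial member, had the widest range of the family, from 4.63 to 12.03 on the log2 scale of probe-set intensity. Its log2 intensity was 6.42 in WT and 4.63 in KO control ileum, 8.87 in WT and 6.35 in KO control colon, 10.04 in WT DSS colon, and 12.03 and 10.43 in KO DSS replicates 1 and 2. On the linear scale the KO colon went from an intensity of 81.7 in the control to 4170.4 and 1376.8 after DSS, and the WT colon from 468.7 to 1055.1. All 3 DSS arrays were above both control colons, and control colon was above ileum within each genotype. From high to low the groups ran KO DSS colon (11.23 ± 1.13, SD, n = 2), WT DSS colon, WT control colon, WT ileum, KO control colon and KO ileum. WT ileum and KO control colon, at 6.42 and 6.35, were closer to each other than the KO DSS pair, as were KO and WT DSS colon, whereas all groups other than KO DSS had 1 array and no spread of their own.

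The fitted DSS difference of Retnlb was 3.36 ± 0.88 log2 units (SE, 3 DSS against 2 control colon arrays), a 10.2-fold higher level with a 95% interval of 2.34 to 44.8. Of all genes 0.186% had a larger absolute difference, yet it did not pass in limma (adjusted p = 0.0626), and its size varied between arrays. It was 1.17 in the WT pair and 5.67 and 4.07 in the KO DSS replicates against the single KO control colon. Of 9 other settings that kept all arrays of the comparison, 6 left the difference short of the threshold, with adjusted p up to 0.161 in limma. It passed when KO DSS replicate 1 was left out (2.62, adjusted p = 0.0297) or the WT DSS array was (4.69, adjusted p = 0.0187), with each array centred on its median (adjusted p = 0.0439) and without dim genes (adjusted p = 0.0416). Without the KO control colon it was 2.02 (adjusted p = 0.449).

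**Figure D1:**
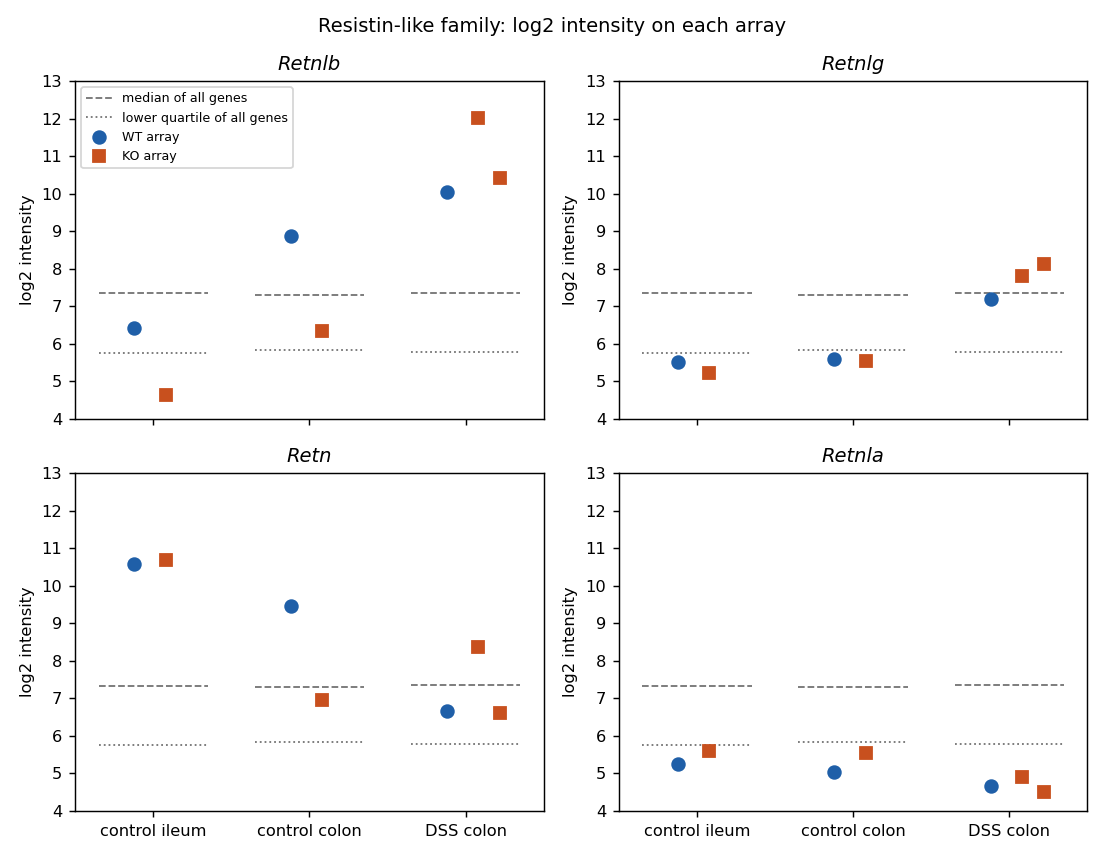
Log2 intensity of each family member on each array, by tissue and treatment, with 1 point per array. Circles are WT and squares KO, and the dashed and dotted lines are the mean over the arrays of a condition of the median and of the lower quartile of all genes. Retnlb reaches 12.03 in DSS colon, Retnlg is above 7 in DSS colon only, Retn is highest in ileum, and Retnla stays below the lower quartile throughout.

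Goblet cell genes as a list did not follow Retnlb. Of 13 measured goblet cell genes none rose and 2 fell with DSS, Clca1 (-0.98 ± 0.21, adjusted p = 0.0332), a secreted regulator of mucus, and Creb3l1 (-0.77 ± 0.11, adjusted p = 0.0106), a transcription factor of the secretory pathway. The list median was -0.11, against -0.01 over all genes, with 4 genes on the positive and 9 on the negative side. Spdef (0.70 ± 0.32), St6galnac1 (0.64 ± 0.53) and Galnt12 (0.59 ± 0.22) were positive without passing. Within DSS colon Spdef had the order of Retnlb, at 10.05 and 9.44 in KO replicates 1 and 2 and 8.97 in WT. Galnt12 had it too, at 9.84, 9.49 and 9.29, but St6galnac1 did not. The main mucin Muc2 was at 13.66 in WT and 13.42 in KO control colon and ranged from 13.38 to 13.89 over the 3 DSS samples. The mean log2 intensity of the 13 genes lay between 10.90 in WT DSS colon and 11.49 in WT control colon, while Retnlb spanned 4.63 to 12.03 over the same arrays. No goblet cell gene was lower when either control colon or the WT DSS array was left out, and 5 were when KO DSS replicate 1 was.

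Several other genes of an epithelial antimicrobial list were higher in DSS colon. Of 19 measured members of this list 9 rose and 2 fell, with a median of 2.02. The 9 include Lcn2, S100a8 and S100a9, which are on the neutrophil list below as well. The 2 that fell were Reg4 (-2.22 ± 0.37) and Wfdc2 (-1.23 ± 0.22). Nos2, which makes nitric oxide in inflamed epithelium, rose by 5.46 ± 0.37, and Reg3g, a lectin that binds gram-positive bacteria, by 4.84 ± 1.17 (adjusted p = 0.0499). Lcn2, which sequesters bacterial siderophores and is made by neutrophils too, rose by 3.56 ± 0.28. Reg3b stood at 4.48 ± 1.23 and did not pass. Like Retnlb, Reg3g was far higher in KO DSS replicate 1 (12.75) than in KO DSS replicate 2 (8.95) and WT DSS colon (8.13). It was at 4.80 and 5.06 in the WT and KO control colons but, unlike Retnlb, highest in WT and KO ileum (13.49 and 13.15). Most other genes of the list that rose were instead lowest in KO DSS replicate 1 among the DSS arrays. Duox2 was at 11.13 there against 11.73 in replicate 2 and 11.43 in WT DSS colon, and Pla2g2a at 9.27 against 10.31 and 10.55. Markers of position along the gut differed for KO DSS replicate 1 as well, in mixed directions. Of the 7 colonic genes 4 fell with DSS (median -1.26), none when either control colon was left out, 2 when WT DSS colon was and 6 when KO DSS replicate 1 was. Their mean was 9.96 in KO DSS replicate 1, 10.44 in replicate 2 and 10.52 in WT DSS colon, against 11.85 and 11.54 in WT and KO control colon. Hoxb13, a homeobox gene of the distal gut, was at 8.59 in KO DSS replicate 1. It was at 10.50 and 10.54 in replicate 2 and WT DSS colon, and Tgm3 was at 10.03 against 11.82 and 12.08. Hoxd10 and Hoxd11 were also lowest in KO DSS replicate 1 among the DSS arrays. Car1, Sycn and Aqp8 were instead highest in that array. Car1 was at 13.37 there against 12.26 in replicate 2 and 13.13 in WT DSS colon, and Sycn at 12.98 against 12.59 and 12.63. The mean of the 6 ileal genes was 6.07 in KO DSS replicate 1 and 5.86 to 6.03 in the other 4 colon arrays. The part of position in the Retnlb values was not tested. The number that rose was 2 without the KO control colon and 4 without the WT control colon.

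Retnlg, the neutrophil member, was near the floor in every control array and rose in DSS colon. Its log2 intensity was 5.51 in WT and 5.23 in KO control ileum and 5.59 in WT and 5.55 in KO control colon. After DSS it was 7.18 in WT, and 7.80 and 8.13 in KO replicates 1 and 2. All 4 control values were in the lowest 25% of gene intensities on their arrays, where a fold may be understated, and the DSS and control values did not overlap. From high to low the groups ran KO DSS colon (7.97 ± 0.24, SD, n = 2), WT DSS colon, WT control colon, KO control colon, WT ileum and KO ileum. The last 4 lay between 5.23 and 5.59, with WT and KO control colon next to each other.

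The DSS difference of Retnlg was 2.10 ± 0.25 log2 units (SE, 3 against 2 arrays), or 4.29-fold with a 95% interval of 2.80 to 6.56, and it passed in limma (adjusted p = 0.00673). It was 1.60 in the WT pair and 2.25 and 2.59 in the KO DSS replicates against the KO control colon. Retnlg was the only one of the 4 members to pass for DSS, in a comparison where 10.6% of all genes passed, 7.20% higher and 3.43% lower. With quantile normalization the split of all calls was 1200 higher and 1112 lower instead of 1436 and 684. The size of the Retnlg difference stayed between 1.90 and 2.48 without any single array, but it missed the threshold when a control colon was left out, be it WT (2.26, adjusted p = 0.0696) or KO (1.90, adjusted p = 0.0982).

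Neutrophil markers moved with Retnlg. Of 19 measured members of that list 12 rose and none fell, with a median of 1.61. Among them were Lcn2, the surface lectin Clec4e (3.28 ± 0.40), S100a9 (2.61 ± 0.28) and S100a8 (2.28 ± 0.18), which pair as calprotectin. Lcn2, S100a8 and S100a9 are counted on the antimicrobial list too. The granule genes Mpo and Ngp lay below the lower quartile on 6 of the 7 arrays and did not pass. Camp (-0.34 ± 0.17) and Elane (0.04 ± 0.11) were not below it on any array and did not pass either. Ltf stood at 1.65 ± 0.49 without passing, and Mmp8 rose (1.61 ± 0.36). Ly6g was at 12.50 in WT and 12.48 in KO control colon, at 12.59 to 13.12 after DSS, above both controls without passing (0.39 ± 0.14), and at 5.11 and 4.95 in ileum. The mean of the 19 genes, Ly6g included, was 5.79 to 6.18 in the 4 control arrays, 7.26 and 7.63 in KO DSS replicates 1 and 2, and 7.71 in WT DSS colon. Within DSS colon the orders differed, since WT had the highest neutrophil mean and the lowest Retnlg of the 3 arrays. The part of neutrophil number in the Retnlg difference was not tested. Without the KO control colon 3 neutrophil genes rose, and without the WT control colon 4.

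**Figure D2:**
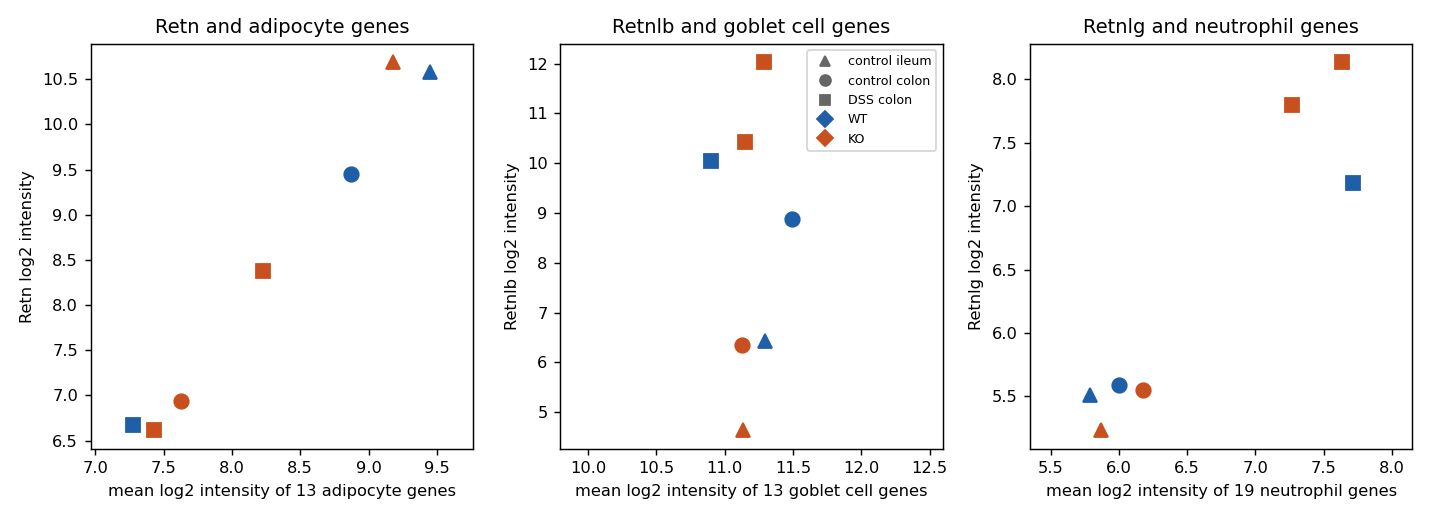
Log2 intensity of a member (vertical axes) against the mean log2 intensity of a marker list on the same array (horizontal axes), with 1 point per array, shape for tissue and treatment and colour for genotype. Retn lies along the adipocyte mean, Retnlb varies while the goblet cell mean stays between 10.90 and 11.49, and Retnlg separates DSS from control arrays as the neutrophil mean does.

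Retn, the adipocyte hormone, was highest in ileum and differed widely among colon arrays. Its log2 intensity was 10.58 in WT and 10.69 in KO control ileum and 9.45 in WT but 6.94 in KO control colon. After DSS it was 6.68 in WT, and 8.38 and 6.61 in KO replicates 1 and 2. Both ileum values were above all 5 colon values. Between ileum and control colon 2 of the 4 members did not overlap, Retn higher and Retnlg lower, as did 54.1% of all genes (25.8% higher, 28.2% lower), while the DSS values overlapped those of control colon. From high to low the groups ran KO ileum, WT ileum, WT control colon, KO DSS colon (7.49 ± 1.25, SD, n = 2), KO control colon and WT DSS colon, and the last 3 lay within the spread of the KO DSS pair.

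The ileum minus colon difference of Retn was 2.43 ± 0.88 log2 units (SE, 2 against 2 arrays), or 5.40-fold with a 95% interval of 1.25 to 23.3. It did not pass (adjusted p = 0.169), with 1.12 in the WT pair and 3.74 in the KO pair, in a comparison where 9.16% of all genes passed (5.94% higher, 3.22% lower; 53.6% of the calls were higher with quantile normalization, against 64.8%). It passed without KO DSS replicate 1 (adjusted p = 0.0445), and it was 0.92 without the KO control colon. The DSS difference was -0.91 ± 0.81 (adjusted p = 0.557; 95% interval -2.86 to 1.04), with 0.45 when the WT control colon was left out and -2.58 when the KO one was. In the WT pair the DSS minus control value was -2.78, while the KO DSS replicates stood at 1.43 and -0.33 against the KO control colon.

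Adipocyte genes ran in nearly the same order over the arrays as Retn. The mean log2 intensity of 13 adipocyte genes was 9.45 in WT and 9.18 in KO ileum, 8.87 in WT and 7.63 in KO control colon, 7.28 in WT DSS colon, and 8.23 and 7.43 in KO DSS replicates 1 and 2. As for Retn, WT control colon and KO DSS replicate 1 were the highest of the 5 colon arrays. The defining fat hormone Adipoq was at 9.66 and 9.45 in WT and KO ileum, 7.92 in WT and 6.20 in KO control colon, 6.54 in WT DSS colon, and 7.05 and 6.03 in KO DSS replicates 1 and 2. Leptin (Lep) lay below the lower quartile on all 5 colon arrays. Between ileum and control colon 5 of the 13 genes were higher and 1 lower, with a median of 1.32 against -0.02 over all genes. The higher ones included Adipoq (2.49 ± 0.49), Lep (1.14 ± 0.15), the lipid droplet protein Plin1 (1.66 ± 0.38) and the hormone-sensitive lipase Lipe (1.32 ± 0.20). The lower one was Pparg (-1.01 ± 0.18), at 9.72 and 9.24 in WT and KO ileum against 10.63 and 10.34 in WT and KO control colon. Pck1 was on the negative side too, at -1.42 ± 0.49, without passing. None of the 13 was higher without the KO ileum, 1 without the KO control colon, 2 without the WT ileum and 3 without KO DSS replicate 2. With DSS 2 of the 13 fell, Pck1 (-1.92 ± 0.45) and the glucose transporter Slc2a4 (-0.93 ± 0.20), none when either control colon, KO DSS replicate 2 or the WT DSS array was left out, and the median of -0.43 became -1.22 without the KO control colon, 0.07 without the WT DSS array and 0.25 without the WT control colon. How much fat each sample held was not measured, and its part in the Retn values was not tested.

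Retnla, the member known from alternatively activated macrophages, stayed dim on all arrays. Its log2 intensity was 5.24 in WT and 5.59 in KO control ileum, 5.03 in WT and 5.54 in KO control colon, 4.66 in WT DSS colon, and 4.91 and 4.50 in KO DSS replicates 1 and 2. All 7 values were in the lowest 25% of gene intensities on their arrays, and the deposited table gives no detection call. The 3 DSS values lay below both control colon values without overlap. With Retnlb and Retnlg above, 3 of the 4 members had no overlap between DSS and control colon, as had 40.1% of all genes (22.1% higher, 18.0% lower). From high to low the groups ran KO ileum, KO control colon, WT ileum, WT control colon, KO DSS colon (4.70 ± 0.29, SD, n = 2) and WT DSS colon, and the last pair differed by less than the spread of the KO DSS arrays.

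The DSS difference of Retnla was -0.64 ± 0.17 log2 units (SE, 3 against 2 arrays) and did not pass (adjusted p = 0.0601). Its 95% interval ran from -1.05 to -0.24, and the 3 single-pair values were -0.38 in WT and -0.63 and -1.04 in KO. Of 8 other settings that kept all arrays of the comparison, 6 left the difference short of the threshold, with adjusted p up to 0.104 in limma. Without the KO control colon the difference was -0.46. It passed with each array centred on its median (adjusted p = 0.0473), with a variance trend and robust fit (adjusted p = 0.0326) and without KO DSS replicate 1 (adjusted p = 0.0364). Between ileum and control colon Retnla stood at 0.13 ± 0.18, Retnlg at -0.19 ± 0.28 and Retnlb at -2.08 ± 0.96 (adjusted p = 0.272; 95% interval -4.39 to 0.23). None of the 4 members passed for this comparison. The ileum minus colon value of Retnlb was -2.45 in the WT pair and -1.72 in the KO pair.

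**Figure D3:**
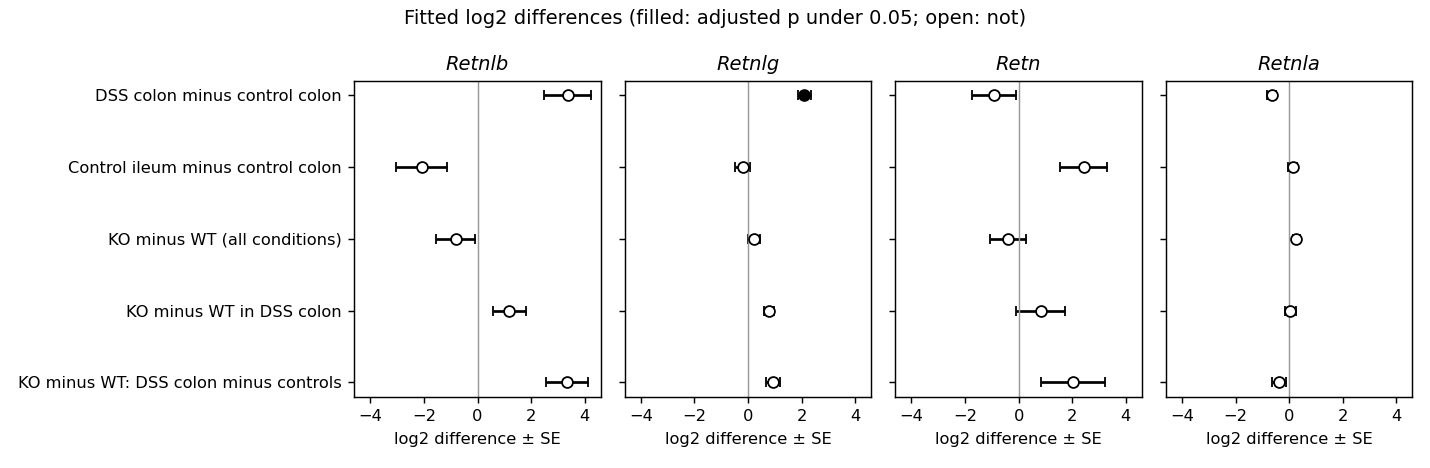
Fitted log2 differences of each member with their standard errors (horizontal axis) for the 5 comparisons (vertical axis). Filled points passed an adjusted p of 0.05 in limma and open points did not. The DSS difference of Retnlg (2.10 ± 0.25) is the filled point, and those of Retnlb are wider, with 3.36 ± 0.88 for DSS.

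IL-4 and IL-13, the cytokines known to induce Retnla and Retnlb, did not pass for DSS at the level of RNA. Of 15 measured cytokines, receptors and signalling genes of this pathway 1 rose with DSS and none fell, with a median of 0.08. The gene that rose was Il4ra, the receptor chain shared by IL-4 and IL-13, by 1.71 ± 0.12 (adjusted p = 0.00128), from 8.57 and 8.59 in WT and KO control colon to between 10.17 and 10.49 after DSS. Il4, Il5 and Tslp lay below the lower quartile on all 7 arrays, and Il13 ranged from 5.79 to 6.19. The alarmin Il33 stood at 1.09 ± 0.33 and did not pass, nor did Stat6, the transcription factor downstream of Il4ra, at 0.30 ± 0.10. Without KO DSS replicate 1 the number that rose was 3.

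Most macrophage targets of IL-4 and IL-13 did not pass either. Of 14 such genes 2 rose with DSS, the transglutaminase Tgm2 (2.23 ± 0.26), which many cell types express, and the chitinase-like Chil3 (1.16 ± 0.28, adjusted p = 0.0472), and the median was -0.01. Neither rose without either control colon, and 1 of them did without KO DSS replicate 2, the WT DSS array or either ileum. Mrc1, the mannose receptor of these macrophages, stood at -0.46 ± 0.16 and did not pass. Of 14 macrophage markers 6 rose and 1 fell, with a median of 0.63, but 1 without either control colon, 3 without KO DSS replicate 2 and 2 without the WT DSS array. Among 7 measured eosinophil genes Il5ra rose (1.79 ± 0.20), while Prg2, Epx and Ccr3 lay below the lower quartile on all 7 arrays, and Il5ra missed the threshold without either control colon. Smooth muscle genes were all on the negative side (14 of 14, median -1.53), of which 3 fell. The number was 11 without KO DSS replicate 1, 1 without either ileum, and 0 without either control colon, KO DSS replicate 2 or the WT DSS array. Their mean was 10.38 in KO DSS replicate 1, 9.52 in replicate 2 and 9.01 in WT DSS colon, against 10.85 and 10.80 in WT and KO control colon, next to the family values above. The part of this in the member differences was not tested.

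Factors reported at promoters of this family and proposed receptors of resistin were examined as well. Of 9 factors 2 rose with DSS, Cebpb (0.96 ± 0.17) and Cebpd (0.87 ± 0.17), both basic leucine zipper proteins induced in inflammation, and neither rose without the KO control colon. Cdx2, the caudal homeobox factor of intestinal epithelium, was higher in ileum than in control colon (1.47 ± 0.30, adjusted p = 0.0318), though not without either ileum or the KO control colon, and stood at 0.60 ± 0.28 for DSS without passing. Of 5 receptor genes Ror1 fell with DSS (-1.03 ± 0.12), though not without the WT control colon, while Tlr4 stood at 0.70 ± 0.20, its partner Cd14 at 1.27 ± 0.40 and Cap1 at 0.41 ± 0.10, none of which passed, although 3 rose without KO DSS replicate 1. Of 11 other adipokines 4 rose, namely Tnf (2.76 ± 0.23), Il6 (2.32 ± 0.31), Ccl2 (2.13 ± 0.20) and Nampt (1.30 ± 0.16), all of which immune cells also make, and 1 rose without either control colon.

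**Figure D4:**
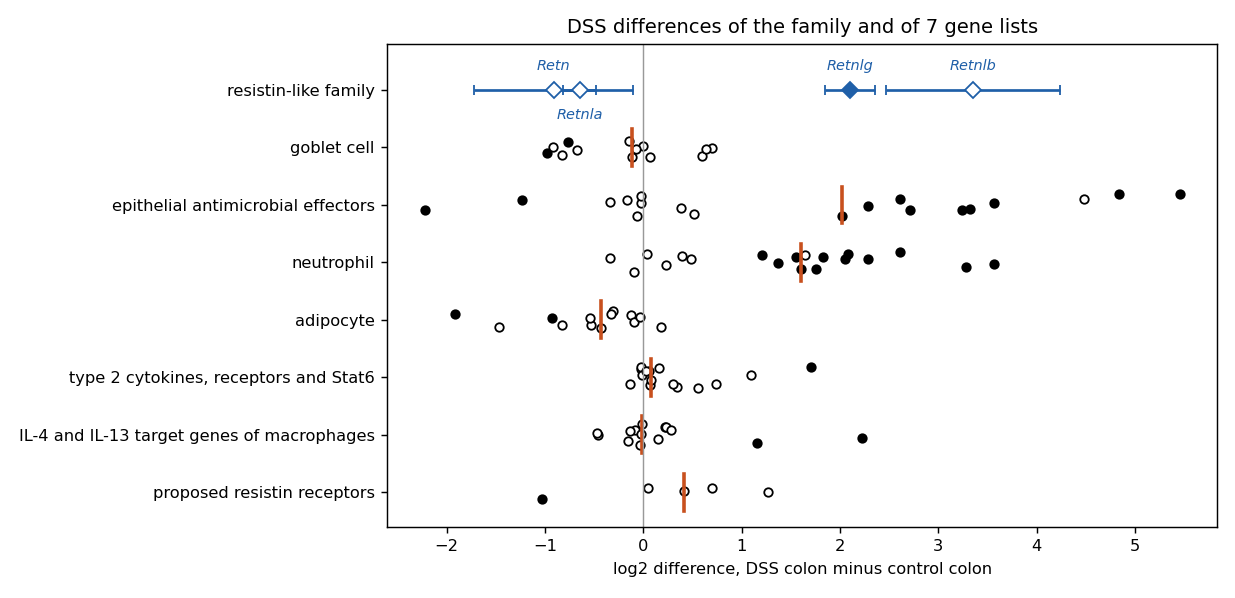
Log2 difference between DSS and control colon (horizontal axis) for the family members with standard errors (diamonds) and for the measured genes of 7 lists (circles, with the list median as a bar). Filled symbols passed an adjusted p of 0.05 in limma. Retnlb at 3.36 lies outside the range of the goblet cell genes, and Retnlg at 2.10 lies among the neutrophil genes, whose median is 1.61.

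No member passed the threshold for loss of Atg4b. For KO against WT over all conditions (4 against 3 arrays) the differences were -0.82 ± 0.74 for Retnlb, -0.39 ± 0.68 for Retn, 0.27 ± 0.14 for Retnla and 0.22 ± 0.21 for Retnlg, each with an adjusted p of 0.989. In that comparison 0.00502% of all genes passed, which is Atg4b alone, and 720 genes had an unadjusted p under 0.05. The 95% intervals were wide for Retnlb (-2.61 to 0.97) and Retn (-2.03 to 1.24) and narrower for Retnla (-0.06 to 0.61) and Retnlg (-0.30 to 0.73).

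The KO minus WT values of Retnlb had opposite signs in control and DSS tissue. They were -1.79 in ileum and -2.52 in control colon, against 1.98 and 0.38 for KO DSS replicates 1 and 2 set against the single WT DSS array. In control colon 0.0301% of all genes were as far apart between KO and WT as Retnlb, and 0.0351% as far as Retn (-2.51). The difference between the DSS and control values of KO minus WT was 3.34 ± 0.79 for Retnlb (limma adjusted p = 1.000), and 0.0201% of all genes had a larger absolute value. It passed without KO DSS replicate 1 (2.54, adjusted p = 0.0102) and without replicate 2 (4.14, adjusted p = 9.50e-05), where the error rests on 1 residual degree of freedom among the control arrays and on variance shared across genes.

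Retnlg showed the same order of signs at a smaller size. Its KO minus WT values were -0.28 in ileum and -0.04 in control colon, and 0.61 and 0.95 in DSS colon. In DSS colon the fitted KO minus WT difference was 0.78 ± 0.20 for Retnlg, 1.18 ± 0.62 for Retnlb, 0.82 ± 0.92 for Retn and 0.05 ± 0.21 for Retnla, none of which passed (limma adjusted p = 1 for each). No gene of the 19938 passed in limma for that comparison or for the difference between DSS and control values (0% each), with 776 and 639 genes at an unadjusted p under 0.05. For Retnlb 1 KO array against the WT array gave 0.38 without KO DSS replicate 1 (adjusted p = 1) and 1.98 without replicate 2 (adjusted p = 0.00169), with an error taken from the control arrays.

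Genes whose log2 intensity was most like that of each member over the 7 arrays were ranked by Pearson correlation among 3411 genes with a range of at least 1 log2 unit. The arrays fall into separate tissues and treatments, so these values only describe a shared order. For Retn the 5 closest were Cidec, Dhdh, Fabp4, Lpl and Adtrp (r from 0.978 to 0.991), of which Cidec, a lipid droplet protein, Fabp4, a fatty acid carrier, and Lpl, lipoprotein lipase, are on the adipocyte list. For Retnlg they were Tnfrsf23, Ccl2, Il11, Ccl7 and S100a8 (r from 0.981 to 0.993), of which Ccl2 and Ccl7 are monocyte chemokines and S100a8 is on the neutrophil list. All 5 were higher in DSS than in control colon, by 1.57 to 2.28, which follows from picking them for likeness to Retnlg. For Retnlb they were Higd1a, Paqr5, Inf2, Egfr and Zbtb7c (r from 0.940 to 0.982), none of them on the goblet cell list. For Retnla, at its low intensity, they were Pcbd1, Tril, Abi3bp, Ptms and Nuak1 (r from 0.935 to 0.952).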

How the data were processed

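Per the labels' protocols, RNA was purified with RNeasy reagents and the label was biotin, with 1 array per sample. The authors deposited 1 linear intensity per probe set and array (35512 probe sets, 10.4 to 22236.4, array medians of 121.4 to 126.45). Their summarisation and normalization are not given in these sources; if arrays were scaled alike, a change common to every gene cannot be seen. Log2 was taken here. Of the probe sets 21789 had 1 symbol in the platform annotation, 1621 several and 12102 none here, and the probe set with the highest mean was kept per gene.

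Models were fitted with limma 3.58.1 in R 4.3.3 (lmFit, eBayes, Benjamini-Hochberg over all genes, threshold 0.05). The first held condition and genotype (3 residual degrees of freedom); the second let the genotype difference vary between controls and DSS colon (2). Values with ± are log2 differences with SE unless SD is given, and the number of arrays limits the precision. The fits were tested on simulated data with independent noise and 200 changed genes. Of changes of 1 log2 unit they recovered 99% for DSS, 89.5% for ileum minus colon and 98.5% for KO minus WT. They recovered 68.5% for KO minus WT in DSS colon and only 1% for its difference from controls. Of changes of 3 log2 units, 99.5% were recovered for that difference and 100% for the other comparisons.

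Members and the 16 gene lists (167 of 181 genes measured) were chosen with earlier results of these data known. Named genes were the members, up to 4 genes per list with the largest DSS difference, defining markers, and the 5 most similar genes per member (sex markers, receptor segments, predicted genes and small RNAs excepted); other list genes were chosen after their values were seen. Alternatives were scaling, dim genes, all probe sets, averaged probe sets, an offset of 16, variance trend, labelled sex, subsets of arrays and leaving out each array (for list counts, added after seeing the data). Promoters came from RefSeq (GRCm38.p6), aligned with Biopython 1.88.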

Additional observations from a re-analysis of the deposited data

Results flagged for a closer look

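The KO minus WT value of Retnlb was negative in both control tissues (-1.79 in ileum, -2.52 in control colon) and positive for both KO DSS arrays (1.98 and 0.38), which share the WT DSS array. The difference was 3.34 ± 0.79 log2 units and did not pass after adjustment over all genes (adjusted p = 1.000 in limma). Retnlg had the same signs, with -0.28 and -0.04 in controls and 0.61 and 0.95 in DSS colon, and a difference of 0.94 ± 0.26 that did not pass either (adjusted p = 1.000 in limma). The KO minus WT value of Retn was 0.11 in ileum and -2.51 in control colon, opposite in sign by 1 pair of arrays each, so that the difference of -2.62 was not tested.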

How the results depend on the processing

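Of 155 values of the 4 members under other settings that kept all arrays of a comparison, 147 kept their direction and their side of the threshold, as did 115 of 132 values without 1 array. Most of the 20 member results did not pass in the main fits, so keeping the side mostly means staying short of the threshold. Some differences could not move either. Ileum minus colon is unchanged without a DSS array, and KO minus WT in DSS colon is unchanged without a control array. For DSS, Retnlb passed with each array centred on its median (3.32) and without dim genes (3.36), and Retnla with centring (-0.69) and with trend and robust variance (-0.64). With labelled sex as a covariate Retnlb was 3.02 and passed, but labelled sex is the same term as genotype by DSS in this design and the sex markers go against it in the WT arrays, so this is no adjustment for sex. For ileum minus colon, Retn (2.43) and Retnlb (-2.08) passed with control arrays alone, where 1 residual degree of freedom leaves the error mostly to variance shared across genes. Retnla in DSS colon, KO minus WT, was -0.019 with centring. Calls over all genes went from 1 to 0 for KO minus WT with all probe sets, from 0 to 3 (centring) and 10 (trend and robust) for KO minus WT in DSS colon, and from 0 to 2 (trend and robust) for its difference from controls. The cause was not tested.

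Without single arrays the DSS difference ran from 2.02 to 4.69 for Retnlb, from 1.90 to 2.48 for Retnlg, from -2.58 to 0.45 for Retn and from -0.79 to -0.46 for Retnla. The ileum minus colon difference ran from 0.92 to 3.95 for Retn, from -3.30 to -0.87 for Retnlb, from -0.55 to 0.16 for Retnlg and from -0.038 to 0.30 for Retnla. KO minus WT ran from -1.20 to 0.52 for Retn, from -2.16 to -0.09 for Retnlb and from -0.16 to 0.43 for Retnlg, and in DSS colon from -0.062 to 1.70 for Retn, from 0.38 to 1.98 for Retnlb and from -0.16 to 0.25 for Retnla. The Retnlb difference between DSS and control values ran from 2.54 to 4.14. Calls over all genes ran from 183 to 3549 for DSS, from 660 to 2418 for tissue, from 0 to 1 for KO minus WT, from 0 to 538 for KO minus WT in DSS colon and from 0 to 279 for its difference from controls. The DSS count was 183 without the KO and 216 without the WT control colon, 526 without the WT DSS array, 800 without KO DSS replicate 2 and 3549 without KO DSS replicate 1. The tissue count was 660 and 812 without the KO and WT control colon and 709 and 1003 without the KO and WT ileum. The KO minus WT count was 1 without KO DSS replicate 1 and 0 without any other array. Without KO DSS replicates 1 and 2 in turn, 25 and 538 genes passed for KO minus WT in DSS colon, and 18 and 279 for its difference from controls. In these fits a lone array is assumed to vary like the others. The last 2 comparisons could not be fitted without the WT DSS array. No paired analysis was possible because only the KO DSS arrays carry replicate numbers in the labels. Values below the lower quartile, as for Retnla, may understate a difference.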
